A study of Ovis aries with 6 samples.

Results

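The PGC-1 coactivators, the estrogen-related receptors (ERRs) and the factors that carry their signal to mitochondrial DNA were followed through the longissimus dorsi muscle of the 2 sheep breeds. The genes were PPARGC1A, PPARGC1B, PPRC1, ESRRA, ESRRB, ESRRG, NRF1, GABPA, TFAM and TFB2M, taken by name from the table of counts. Of the 23144 rows of that table, 9 carry one of these 10 names, and TFAM is the name without a row. The RefSeq gene number of TFAM is carried by another row, LOC101122161, whose values are given as those of TFAM beside the 9 and are not counted among them. The libraries came from 3 females of the Qianhua Mutton Merino (QHMM) and 3 of the Small Tail Han (STH) breed, all aged 1 year and raised in the same environment under natural light, and each animal gave 1 library. The paper gives live weight as measured after fasting and before slaughter in both breeds. No other treatment is named for either group, the groups differ in breed, and differences are given as STH vs. QHMM throughout. Poly(A)-containing RNA was read on an Ion Proton instrument, and 10982191 to 14334544 reads per library were counted on genes. Levels of 1 gene are given as normalized counts, which are counts divided by a TMM-scaled library size. Levels of different genes are compared only as RPKM. RPKM divides counts by gene length and by the library total, without the TMM scaling.

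PGC-1α, the product of PPARGC1A, is a transcriptional coactivator: it does not bind DNA itself but is brought to genes by nuclear receptors and other factors, and there recruits the machinery that raises transcription. In skeletal muscle it is known for driving mitochondrial biogenesis, oxidative metabolism and slow fibre character, and it is induced by endurance exercise, cold and fasting. PGC-1β (PPARGC1B) and PRC (PPRC1) are its relatives. ERRα, ERRβ and ERRγ (ESRRA, ESRRB and ESRRG) are orphan nuclear receptors that bind the genes of oxidative phosphorylation and fatty acid oxidation, and they work through coactivators without needing an added hormone. NRF1 and GABPA (the DNA-binding subunit of the factor also called NRF-2) switch on the nuclear genes of the respiratory chain and, among others, TFAM and TFB2M. Those proteins enter the mitochondrion, where TFAM packages mitochondrial DNA and bends its promoters and TFB2M helps the mitochondrial RNA polymerase to start transcription.

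All 7 defining markers of skeletal muscle looked at (ACTA1, CKM, MB, DES, TTN, NEB and RYR1) were found and passed the filter on low counts in these libraries. None was called by edgeR, and 1 had an unadjusted p below 0.05 and was called by DESeq2: MB, the oxygen-binding myoglobin, with a log2 fold change of -1.47 (SE 0.39, edgeR FDR 0.0683) and no overlap. The breeds were separated by the first principal component, with 44.1% of the variance, while QHMM replicate 2 and STH replicate 3 stood apart from the other 4 libraries on the second, with 19.1%. Markers of other fibres and cells also differed between the breeds. For comparison, edgeR called 1.83% of all tested genes lower in STH and DESeq2 called 7.78% in either direction. An unadjusted edgeR p below 0.05 was found in 19.2% of all tested genes. Of 9 slow fibre markers found, 9 had a negative log2 fold change and 5 were called lower in STH, and their summed normalized counts were 419743 to 455152 in QHMM against 161998 to 195508 in STH. Of 6 adipocyte markers, 4 were called lower in STH, with sums of 1491 to 5072 in QHMM against 686 to 1033 in STH. The 5 fibroblast markers gave 0 calls with edgeR, 2 at an unadjusted p below 0.05 (both lower in STH) and 2 with DESeq2, with sums of 22310 to 37728 and 8521 to 18162. Of 9 fast fibre markers found, 7 were tested, and all 7 had a negative log2 fold change, with a median of -0.34. Of these, 0 were called by edgeR, 2 had an unadjusted p below 0.05 (both lower in STH) and DESeq2 called 1. The summed normalized counts of the fast fibre markers were 912098 to 1275921 in QHMM against 593291 to 1042448 in STH. TNNT3, a fast fibre marker, was listed at 0 in every library. The endothelial, macrophage, satellite cell and Schwann cell markers gave 0 calls with edgeR and with DESeq2, with 1 macrophage marker at an unadjusted p below 0.05. The erythroid markers summed to 9.54 normalized counts at most, and SLC4A1 was at 0. In bulk tissue, fewer cells of a type and less RNA per cell cannot be told apart. The part of these markers in the results that follow was not tested.

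None of the 9 genes was called. A gene was called when its edgeR FDR, adjusted over the 12506 genes that passed the filter on low counts, was below 0.05 and its change was over 1.5-fold. All 9 passed that filter, on raw counts of 16 to 906 per library, and edgeR called 0 of 9, where it called 3.45% of all tested genes. At an unadjusted p below 0.05 there were 3 of 9, against 19.2% of all genes. DESeq2 called 2 of 9, PPARGC1B and PPRC1, against 7.78% of all genes, with PPARGC1B among the 4.44% that it called lower in STH. In 3 of 9 genes the libraries of the breeds did not overlap, against 24.7% of all genes: PPRC1 and NRF1 lay higher in STH and PPARGC1B lay lower. The non-overlapping genes that lay higher in STH were 13% of all genes and those that lay lower 11.7%. The shares of the 9 genes were not tested against those of all genes. The log2 fold changes were positive for 5 genes and negative for 4, and their median was 0.00, beside 0.02 for all tested genes. The largest differences were in the coactivators, and they ran in opposite directions.

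**Figure D1:**
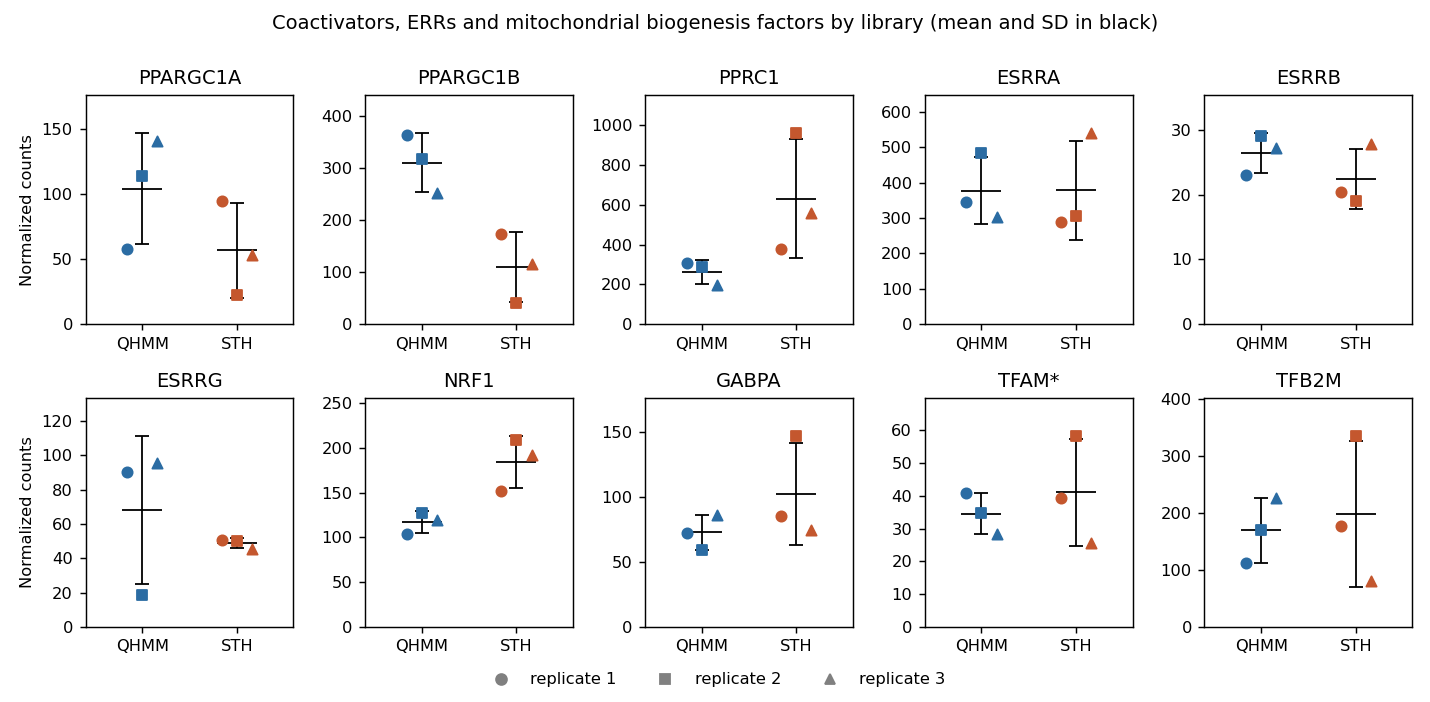
Normalized counts (vertical axes, linear from 0) of the 9 genes and of TFAM in the 3 QHMM (blue) and 3 STH (orange) libraries; marker shapes give the replicate, black lines the mean ± SD, and the asterisk marks TFAM as the row found by its gene number. PPARGC1B, PPRC1 and NRF1 are the panels in which no STH library lies within the QHMM range; STH replicate 2 is the highest point for PPRC1 at 960.5 and the lowest for PPARGC1B at 40.3.

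PPARGC1A, the coactivator of endurance training, was scarce. Its normalized counts in replicates 1, 2 and 3 were 57.6, 114 and 141 in QHMM against 95.0, 22.3 and 53.4 in STH. The breeds overlapped, because QHMM replicate 1 lay below STH replicate 1. The means were 104 ± 42.6 in QHMM against 56.9 ± 36.5 in STH (SD, n = 3 each), a log2 fold change of -0.85 (SE 0.48, edgeR FDR 0.367). The difference of the means was thus of the size of the SD within a breed, and no alternative fit called it. The log2 fold change was -1.47 without STH replicate 1 and -0.50 without STH replicate 2, the ends of its range with 1 library left out. Its raw counts were 21 to 140 per library.

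PPARGC1B, whose product shares with PGC-1α the coactivation of the ERRs and NRF1, lay lower in each STH library than in any QHMM library. It stood at 364, 317 and 252 normalized counts in QHMM and at 174, 40.3 and 117 in STH. The lowest QHMM library was above the highest STH library, and STH replicate 2 was far below the other STH libraries. The means of 311 ± 56.4 and 110.2 ± 66.9 (SD, n = 3 each) were 2.82-fold apart, with a log2 fold change of -1.49 (SE 0.42, unadjusted p 0.00483, FDR 0.0814 with edgeR's quasi-likelihood test). The edgeR FDR lay above the threshold, while DESeq2 gave an FDR of 0.0057. The gene passed in 4 of the 18 alternative fits, among them edgeR without STH replicate 1 (FDR 0.0289), and the log2 fold change stayed between -2.001 and -1.11 when any 1 library was left out.

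PPRC1 encodes PRC, the relative of PGC-1α that is known as a growth-regulated partner of NRF1 and is induced early when quiescent cells are stimulated by serum. It lay higher, not lower, in the STH libraries. Its normalized counts were 307, 289 and 195 in QHMM against 376, 960.5 and 559 in STH. All STH libraries were above all QHMM libraries, and STH replicate 2 was again the farthest out. The means were 264 ± 60.1 and 632 ± 299 (SD, n = 3 each), 2.39-fold higher in STH, and the log2 fold change was 1.26 (SE 0.34, unadjusted p 0.00338, edgeR FDR 0.0693). DESeq2 gave an FDR of 0.00918, and 3 of the 18 alternative fits called the gene. One library weighed on the size of this difference: without STH replicate 2 the log2 fold change was 0.81 (FDR 0.233), and without STH replicate 1 it was 1.51 (FDR 0.0240). In the RefSeq annotation PPRC1 overlaps LDB1 on the opposite strand, and whether reads were counted by strand is not given in the sources used here. LDB1 itself had normalized counts of 417, 439 and 365 in QHMM against 363, 300.0 and 339 in STH, giving a log2 fold change of -0.28 (SE 0.20, edgeR FDR 0.488). PPRC1 also overlaps a pseudogene, LOC114110360, which is not among the tested genes. The part of overlapping reads in the counts of PPRC1 was not tested.

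**Figure D2:**
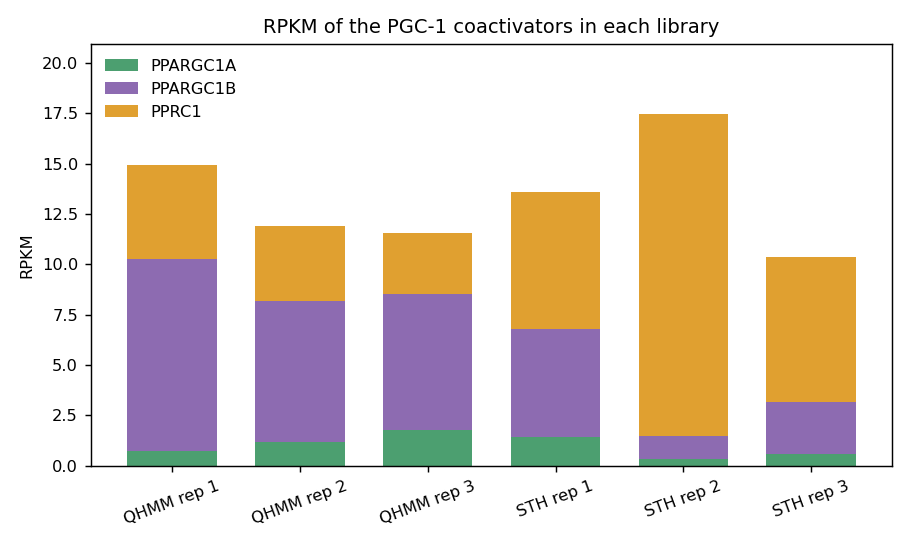
Stacked RPKM (vertical axis, from 0) of PPARGC1A, PPARGC1B and PPRC1 in each of the 6 libraries. PPARGC1B is the largest segment in every QHMM library, at 58.2 to 63.8% of the stack, and PPRC1 in every STH library, at 50.1 to 91.7%.

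Per gene length, the sum of the 3 coactivators overlapped between the breeds while the shares of PPARGC1B and PPRC1 in it did not. The summed RPKM was 14.9, 11.9 and 11.5 in QHMM against 13.6, 17.5 and 10.3 in STH, with means of 12.8 ± 1.87 and 13.8 ± 3.56 (SD, n = 3 each). The ranges of the sum overlapped. These sums lack the TMM scaling, and its part in their comparison between the breeds was not tested. PPARGC1B made up 63.8, 58.7 and 58.2% of that sum in QHMM but 39.6, 6.59 and 24.9% in STH. PPRC1 made up 31.4, 31.2 and 26.3% in QHMM against 50.1, 91.7 and 69.7% in STH. PPARGC1A was the smallest part in every library, at 4.80 to 15.5% in QHMM against 1.73 to 10.3% in STH. By RPKM, the leading coactivator transcript was therefore PPARGC1B in all 3 QHMM libraries and PPRC1 in all 3 STH libraries. How far each led depends on the gene lengths behind the RPKM values, 3008 bases for PPARGC1B and 5156 for PPRC1. In RPKM, PPARGC1B was 2.03, 1.88 and 2.21 times PPRC1 in QHMM, and PPRC1 was 1.26, 13.9 and 2.79 times PPARGC1B in STH. STH replicate 1 was thus much nearer to the QHMM animals than STH replicate 2. This pair was singled out after its values had been seen, so these ratios are a description without a test. The ratio of PPARGC1A to PPARGC1B, on the other hand, was tested: its log2 value was -2.73 ± 0.93 in QHMM and -2.02 ± 0.15 in STH (SD, n = 3 each), a difference of 0.71 with an exact two-sided permutation p of 0.4. The smallest p that 3 animals against 3 can give is 0.1, and 4 ratios of this kind were tested.

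ESRRA, the ERR that is best known as the partner of PGC-1α in muscle, had the same mean in both breeds. Its normalized counts were 344, 484 and 303 in QHMM against 289, 305 and 539 in STH. The highest library of each breed was far above the other libraries of that breed: QHMM replicate 2 and STH replicate 3 are also those that stood apart on the second principal component. The means were 377 ± 95.0 and 378 ± 139.9 (SD, n = 3 each), with a log2 fold change of 0.00 (SE 0.29, edgeR FDR 0.997). Leaving out 1 library moved it between -0.34 and 0.23, so its sign cannot be given. ESRRA overlaps TRMT112, whose log2 fold change was 0.15 (edgeR FDR 0.763). The part of overlapping reads in the counts of ESRRA was not tested.

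ESRRB, the receptor known best from early embryos and stem cells, was near the lower end of what was counted. It gave 23.0, 29.0 and 27.2 normalized counts in QHMM against 20.5, 19.1 and 27.8 in STH. The libraries of the breeds overlapped over a narrow range, and the means of 26.4 ± 3.08 against 22.4 ± 4.68 (SD, n = 3 each) gave a log2 fold change of -0.23 (SE 0.37, edgeR FDR 0.782).

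ESRRG, the receptor that is enriched in slow, oxidative fibres, was even in STH and uneven in QHMM. Its normalized counts were 90.4, 18.6 and 95.7 in QHMM against 50.8, 49.8 and 45.6 in STH. QHMM replicate 2 was the lowest of the 6 libraries and the other QHMM libraries were the highest, so that the STH libraries fell inside the range of QHMM. The coefficient of variation was 63.1% in QHMM against 5.68% in STH. The means of 68.2 ± 43.1 and 48.7 ± 2.77 (SD, n = 3 each) gave a log2 fold change of -0.49 (SE 0.48, edgeR FDR 0.628). It was -0.93 without QHMM replicate 2 and -0.18 without QHMM replicate 3. In RPKM, ESRRA made up 83.2 to 93.7% of the summed ERRs in QHMM and 88.5 to 92.8% in STH. The log2 ratio of ESRRA to ESRRG differed by 0.13 between the breeds (exact two-sided permutation p = 1), with an SD of 1.68 in QHMM.

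**Figure D3:**
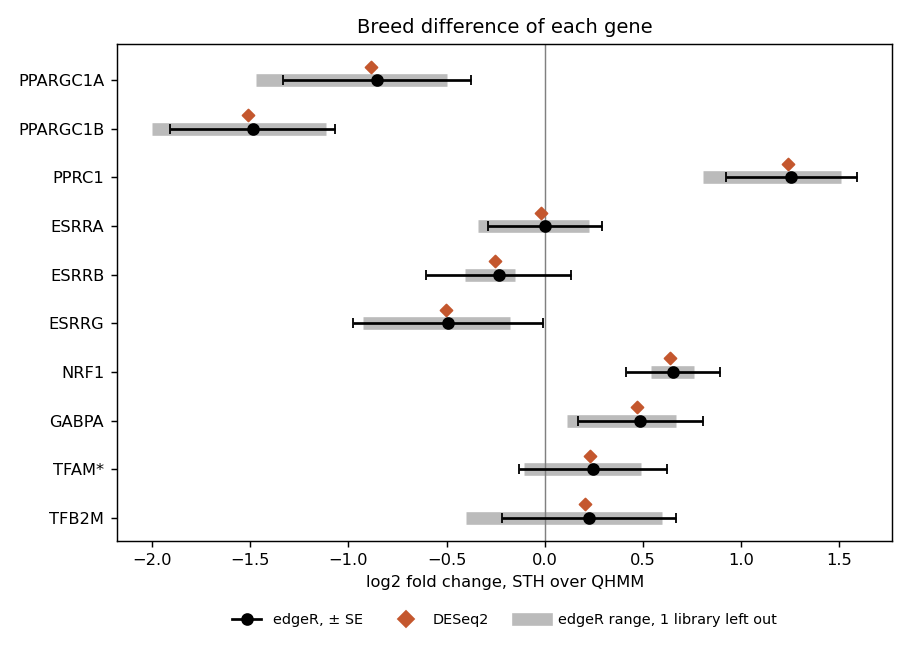
Log2 fold change of STH vs. QHMM (horizontal axis) for each gene: black points and bars are edgeR estimates ± SE, orange diamonds are DESeq2 estimates, and grey bands span the edgeR estimates when 1 library is left out; the asterisk marks the TFAM row found by gene number. PPARGC1B at -1.49 and PPRC1 at 1.26 lie farthest from 0 on either side, and the bands of ESRRA, TFAM and TFB2M cross 0.

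NRF1 lay higher in every STH library, by less than PPRC1. It stood at 104, 128 and 119.9 normalized counts in QHMM and at 152, 209 and 192 in STH. No libraries overlapped, and the means of 117 ± 12.3 and 184 ± 29.1 (SD, n = 3 each) were 1.58-fold apart. The log2 fold change of 0.66 (SE 0.24) had an unadjusted p of 0.0196 and an edgeR FDR of 0.165, with 0.201 from DESeq2. It moved only between 0.54 and 0.76 when 1 library was left out, but 0 of the 18 alternative fits called the gene.

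GABPA, the other nuclear factor, had 72.6, 59.2 and 86.6 normalized counts in QHMM against 85.2, 147 and 74.5 in STH. STH replicate 2 was above all others, and the remaining STH libraries lay within the QHMM range. The log2 fold change was 0.49 (SE 0.32, edgeR FDR 0.448), and 0.11 at the lowest with 1 library left out. GABPA overlaps the gene of an ATP synthase subunit, ATP5J, whose log2 fold change was -0.34 (edgeR FDR 0.402). ATP5J had far more reads, at 794 to 1204 normalized counts over the libraries. The part of overlapping reads in the counts of GABPA was not tested. The log2 ratio of NRF1 to GABPA differed by 0.21 between the breeds (exact two-sided permutation p = 0.6).

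TFB2M varied more between animals than between breeds. It gave 112.5, 169.6 and 227 normalized counts in QHMM against 178, 335 and 81.1 in STH. The highest and the lowest of the 6 libraries were both STH libraries. The means were 169.6 ± 57.1 and 198 ± 128 (SD, n = 3 each), with a log2 fold change of 0.22 (SE 0.44, edgeR FDR 0.831) that ranged from -0.40 to 0.60 with 1 library left out. TFAM, by the row that carries its gene number, had 40.7, 34.8 and 28.2 normalized counts in QHMM against 39.3, 58.3 and 25.6 in STH. Here too the extremes were STH replicates 2 and 3, and the log2 fold change of 0.24 (SE 0.38, edgeR FDR 0.776) ranged from -0.10 to 0.49. The log2 ratio of TFAM to TFB2M differed by 0.13 between the breeds (exact two-sided permutation p = 0.9). Adjusted over the 4 ratios, each p was 1.

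One animal was at the edge for most of these genes. STH replicate 2 was the highest or the lowest of the 6 libraries in 7 of 9 genes, and it held that place in 44.0% of all tested genes. It was the highest for PPRC1, NRF1, GABPA and TFB2M and the lowest for PPARGC1A, PPARGC1B and ESRRB. It was also the highest for TFAM. The library had the lowest total count of the 6, at 10982191, and the part of depth in these positions was not tested.

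**Figure D4:**
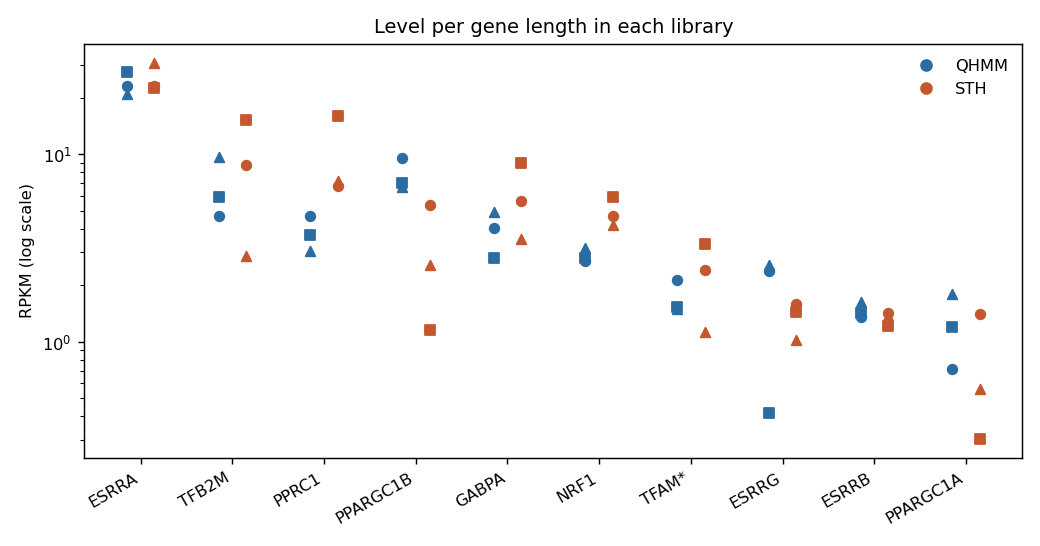
RPKM (vertical axis, log scale) of each gene in the QHMM (blue) and STH (orange) libraries, ordered by the mean over the 6 libraries; marker shapes give replicates 1 (circle), 2 (square) and 3 (triangle), and the asterisk marks the TFAM row found by gene number. ESRRA lies above every other gene at 20.8 to 30.7 RPKM, and PPARGC1A is lowest by its median.

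Compared per gene length, the receptor ESRRA was above its coactivators in every library, by least in STH replicate 2, where ESRRA stood at 22.5 RPKM and PPRC1 at 16.0. This order rests on the gene lengths behind the RPKM values, which are 1167 bases for ESRRA and 5156 for PPRC1. Over the 6 libraries ESRRA stood at 20.8 to 30.7 RPKM and was above the next gene, TFB2M (2.85 to 15.2 RPKM), in 6 of 6 libraries. TFB2M, PPRC1 (3.04 to 16.0 RPKM) and PPARGC1B (1.15 to 9.53 RPKM) followed, and neighbours among them cannot be ordered, because TFB2M was above PPRC1 in 3 of 6 libraries and PPRC1 above PPARGC1B in 3 of 6. GABPA (2.79 to 8.98 RPKM) was above NRF1 (2.68 to 5.88 RPKM) in 5 of 6 libraries, and NRF1 above TFAM (1.12 to 3.31 RPKM) in 6 of 6. The last places were taken by ESRRG (0.414 to 2.58 RPKM), ESRRB (1.22 to 1.62 RPKM) and PPARGC1A (0.302 to 1.79 RPKM), whose ranges overlapped. By breed means, PPARGC1B stood at 7.75 RPKM in QHMM and 3.03 in STH, and PPRC1 at 3.82 and 9.998. ESRRA had means of 23.9 RPKM in QHMM and 25.4 in STH. The RPKM means lack the TMM scaling, and in normalized counts the means of ESRRA were 377 in QHMM and 378 in STH.

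The tested genes most like PPARGC1A across the 6 libraries were TPCN1, ZNF618, C2, METTL24 and SOD3, by the root mean square difference of log2 CPM centred on the mean of each gene. That difference was 0.23 for TPCN1 and ZNF618, 0.24 for C2 and 0.27 for METTL24 and SOD3. Among its own family, PPARGC1B came at rank 861 (0.64) and PPRC1 at rank 12217 (1.55) of the 12506 tested genes, near the far end. These libraries are few, and the measure is a description.

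Around the coactivators, 6 lists of genes known from the textbook pathway were read from the same fit. The regulators of PGC-1α, which modify the protein or control its gene, showed 0 calls with edgeR among the 22 of 23 that were tested, against 3.45% of all tested genes, and their median log2 fold change was 0.02. At an unadjusted p below 0.05 there were 5 (2 higher and 3 lower in STH), a share near the 19.2% of all genes. DESeq2 called 2 of them, near its 7.78% of all genes: KAT2A, the acetyltransferase that acts on PGC-1α, with a log2 fold change of 1.10 (SE 0.30, edgeR FDR 0.0766), and PPP3CB, a catalytic subunit of calcineurin, with -0.81 (SE 0.24, edgeR FDR 0.0913). SIRT1, the deacetylase of PGC-1α, had a log2 fold change of 0.38 (SE 0.30, edgeR FDR 0.534). PRKAA2, the muscle-rich catalytic subunit of AMP-activated kinase, had -0.21 (SE 0.36, FDR 0.802). NRIP1, a corepressor of oxidative genes, had -0.54 (SE 0.22, FDR 0.205).

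Among 17 of 18 partner factors found, 1 rose and 1 fell in STH (background 1.62% higher and 1.83% lower of all tested genes), and the median log2 fold change was -0.02. FOXO1, a forkhead factor that PGC-1α coactivates and that is known for the fasting response, stood at 262, 214 and 134 normalized counts in QHMM and at 955, 2366 and 1832 in STH. Each STH library was several times above each QHMM library, and the log2 fold change was 3.08 (SE 0.37, edgeR FDR 0.0045). RXRG, the retinoid receptor of muscle that pairs with the PPARs and thyroid receptors, had 1111, 1433 and 761 normalized counts in QHMM against 310.4, 154 and 357 in STH. It fell by 2.01 on the log2 scale (SE 0.34, edgeR FDR 0.0143) with no overlap. Both calls held in 6 of 6 fits that left out 1 library. Neither held in the fit of 4 libraries without QHMM replicate 2 and STH replicate 3 (FDR 0.0765 for FOXO1 and 0.0962 for RXRG). The call of RXRG was also lost with limma on log2(RPKM + 1) without a filter. PERM1, the muscle regulator induced by PGC-1α and ERRs, had a log2 fold change of -0.31 (SE 0.28, edgeR FDR 0.592). GABPB1, the partner subunit of GABPA, read from the row named NRF-2, had 0.30 (SE 0.35, FDR 0.691).

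Of 37 genes listed as PGC-1α and ERR targets in oxidative metabolism, 33 were matched to 1 row each, and ACADM, CYCS, COX5B and CD36 were not. STH showed 1 higher and 2 lower calls, where 1.62% and 1.83% of all tested genes were called. Of the 33, 24 had negative and 9 positive log2 fold changes, with a median of -0.37 against 0.02 for all genes. At an unadjusted p below 0.05, 2 were higher and 11 lower, against 9.43% and 9.72% of all genes, and DESeq2 called 2 higher and 9 lower, against 7.78% of all genes in either direction. PDK4, the kinase that shuts pyruvate out of the citrate cycle, rose in STH, from 470.4, 2533 and 163 normalized counts in QHMM to 33758, 40725 and 38364 in STH, giving a log2 fold change of 5.16 (SE 0.86, edgeR FDR 0.0137). The STH animals were close to each other while QHMM replicate 2 was well above the other QHMM animals. IDH3A, a subunit of the citrate cycle isocitrate dehydrogenase, had 2788, 3119 and 2951 normalized counts in QHMM against 1711, 1184 and 1469.5 in STH, and fell by 1.02 on the log2 scale (SE 0.23, FDR 0.0399). LDHB, the lactate dehydrogenase subunit of oxidative muscle, had means of 1601 ± 203 and 828 ± 137 (SD, n = 3 each) and fell by 0.95 (SE 0.22, FDR 0.0459). The calls of IDH3A and LDHB were both lost in the 5 fits that left out any 1 library other than STH replicate 1 (FDR up to 0.125 for IDH3A and 0.13 for LDHB). Both were also lost with a block for the replicate number (FDR 0.0611 for IDH3A and 0.0619 for LDHB). Over all alternative fits the highest FDR was 0.185 for IDH3A and 0.223 for LDHB. The call of PDK4 was lost without QHMM replicate 1 (FDR 0.0506) and with robust dispersions (0.0762). CKMT2, the mitochondrial creatine kinase, had a log2 fold change of -0.88 (SE 0.27, edgeR FDR 0.110, DESeq2 FDR 0.0160), with no overlap between the breeds. VEGFA, the angiogenic factor induced by PGC-1α and ERRα, had -1.17 (SE 0.43, edgeR FDR 0.168, DESeq2 FDR 0.0415), and its libraries overlapped. DESeq2 thus called both genes lower in STH, and edgeR called neither. The enzymes of fatty acid oxidation in the list, named after their values were seen, had positive log2 fold changes. That of HADHB was 1.13 (SE 0.32, edgeR FDR 0.0848, DESeq2 FDR 0.0129), with no overlap between the breeds, while HADHA had 0.47, CPT1B 0.43 and ACADVL 0.23 without a call by either tool. The slow fibre markers, which share oxidative fibres with this list, were lower in STH in the same animals, and their part in the list was not tested.

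**Figure D5:**
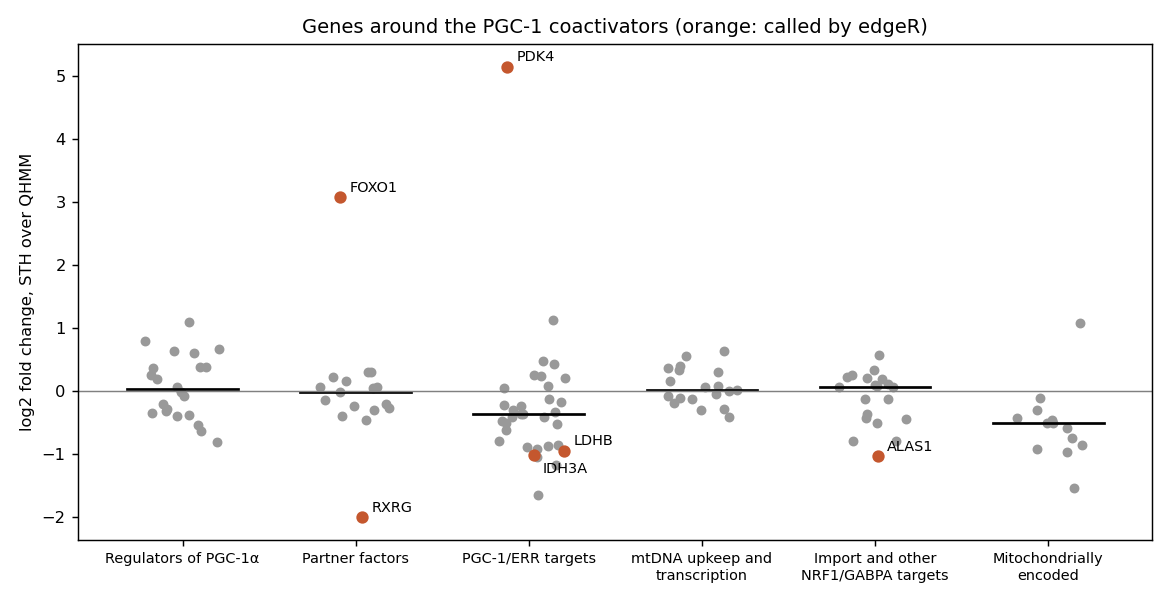
Log2 fold change of STH vs. QHMM (vertical axis) for every tested gene of 6 lists around the coactivators; each point is a gene, orange points were called by edgeR and named, and the black line is the median of the list. The medians of the target list (-0.37) and the mitochondrially encoded list (-0.51) lie below 0, and the other 4 lie within 0.07 of it.

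The machinery of mitochondrial DNA, which TFAM and TFB2M serve, gave 0 calls with edgeR and 0 with DESeq2 among 19 tested genes of 21, with 1 at an unadjusted p below 0.05 and a median log2 fold change of 0.02. Among all tested genes edgeR called 3.45% and DESeq2 7.78%, and 19.2% had such a p. The 1 gene of this list with such a p was POLRMT, the mitochondrial RNA polymerase itself. It stood at 151, 158 and 131 normalized counts in QHMM and at 214, 244 and 225 in STH, without overlap, and its log2 fold change was 0.63 (SE 0.22, edgeR FDR 0.145). TFB1M, the relative of TFB2M that methylates mitochondrial ribosomal RNA, had -0.29 (SE 0.25, FDR 0.586).

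Among 20 genes of mitochondrial import and other NRF1 or GABPA targets, 1 was called, lower in STH, and the median log2 fold change was 0.07. There were 3 with an unadjusted p below 0.05 (1 higher, 2 lower) and 2 called by DESeq2. These counts are near the background of 3.45% called, 19.2% with such a p and 7.78% called by DESeq2. ALAS1, the enzyme that starts heme synthesis, had 2681, 2518 and 2098 normalized counts in QHMM against 1309, 1080.2 and 1158 in STH, and the log2 fold change was -1.04 (SE 0.22, edgeR FDR 0.0316). The breeds were far from overlapping, yet the call was lost in each of the 5 fits without 1 library other than STH replicate 1 (FDR up to 0.0969). NRF1 lay higher and ALAS1 lower in the STH libraries, and a relation between them was not tested. TOMM20, the import receptor, had a log2 fold change of -0.13 (SE 0.25, edgeR FDR 0.831).

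The 13 protein-coding genes of the mitochondrial genome gave 0 calls with edgeR and with DESeq2, and 3 at an unadjusted p below 0.05 (ATP8, ATP6 and CYTB, lower in STH). Among all tested genes edgeR called 3.45% and DESeq2 7.78%. Such a p was found in 19.2% of all tested genes in either direction, and in 9.72% with a lower level in STH. The 3 of 13 were not tested against these shares. The log2 fold changes of the mitochondrially encoded genes were negative in 12 of 13, with a median of -0.51. This median rested on 1 library, as it was -0.16 without QHMM replicate 2. Their summed normalized counts were 231826 to 516797 in QHMM, with QHMM replicate 2 the highest, and 187067 to 242595 in STH. TFAM and TFB2M were not at their highest in QHMM replicate 2, at 34.8 and 169.6 normalized counts. A relation of these 2 genes to the mitochondrially encoded counts was not tested.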

How the data were processed

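The counts were deposited by the authors as whole reads per gene, without normalization, from unique mapped Ion Proton reads. The RPKM values were also deposited by the authors and scale these counts by gene length and library total. The genome build is Oar 3.1 per the submitters' notes. The aligner, the counting program, its strand setting and the annotation release are not given in the sources used here. Of 23144 rows, 23119 were joined to the RPKM table, and 25 names turned into dates were not. All columns of samples were used.

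Counts were tested in R 4.3.3 with edgeR 4.0.16 (TMM, filterByExpr on breed, glmQLFit and glmQLFTest, all 6 libraries, breed as the only term) in place of EBSeq, which was not installed. The thresholds were an FDR of 0.05 (Benjamini-Hochberg over 12506 genes) and an absolute log2 fold change of 0.585. The SE was obtained from the fold change and the F statistic. Ratios of RPKM were compared by exact permutation in SciPy 1.17.1. The edgeR p-values set the breed difference against the variation among the 3 animals of each breed, with dispersions moderated over all tested genes. The permutation p-values count rearrangements of the breed labels.

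In all, 18 alternatives were run. They were 6 fits without 1 library and 12 other settings: DESeq2 1.42.0, upper-quartile normalization, DESeq2 size factors in edgeR, no low-count filter, a minimum of 10 counts for each library, a block for the replicate number, dispersions estimated robustly, leaving out the 20 most abundant genes, limma 3.58.1 on log2(RPKM + 1) or log2(RPKM + 0.1) where 3 libraries or more reached an RPKM of 1, log2(RPKM + 1) without that filter, and edgeR on 4 libraries (chosen after seeing the data). The edgeR, DESeq2 and limma fits were tested on simulated data with known changes.

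The genes and lists were chosen with earlier results of these data known. Named were all members, the called genes of each list and a fixed few besides (SIRT1, PRKAA2, NRIP1, PERM1, GABPB1, TFB1M, POLRMT, CYCS, PDK4, CKMT2, VEGFA, TOMM20 and ALAS1), and the 5 genes nearest to PPARGC1A. KAT2A, PPP3CB, MB, HADHB, HADHA, CPT1B, ACADVL, LDB1, TRMT112, ATP5J, ATP8, ATP6 and CYTB were named after their values were seen. List genes were matched by symbol, older symbol, RefSeq gene number or a unique BLAST symbol in the file. RefSeq gene positions (assembly ARS-UI_Ramb_v3.0) served only for overlaps and neighbours. Plots were drawn with matplotlib 3.10.9.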

Additional observations from a re-analysis of the deposited data

How the results depend on the processing

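No member was called by edgeR over the 12506 tested genes, but DESeq2 and the fit without a low-count filter each called 2, the replicate block 1, and the fits without 1 library 0 to 2. Of all genes, 432 were called, against 973 with DESeq2, 806 without the filter, 78 with limma without a filter, 11 with 4 libraries, and 131 to 535 without 1 library. Regulators called numbered 0, against 2 with DESeq2, 1 without the filter and 0 to 1 without 1 library. Partners numbered 2, against 1 with limma without a filter and 0 with 4 libraries. Targets numbered 3, against 11 with DESeq2, 7 without the filter, 1 with limma without a filter, 1 with 4 libraries, and 0 to 5 without 1 library. Import and NRF1 targets numbered 1, against 2 with DESeq2, 0 with each of the limma settings, 0 with 4 libraries and 0 to 1 without 1 library. Among the fits without 1 library, leaving out STH replicate 1 gave the highest of these counts (535 genes, 2 members and 5 targets). The causes were not tested.

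The log2 fold change of ESRRA, 0.00, turned to -0.018 with DESeq2 and with its size factors in edgeR, -0.022 with upper-quartile normalization, -0.017 without the 20 most abundant genes, -0.011 without the filter, -0.027 with at least 10 counts in every library, -0.032 with the replicate block and -0.13 with 4 libraries, and ranged from -0.34 to 0.23 without 1 library. Without 1 library, TFB2M ranged from -0.40 to 0.60 and TFAM from -0.10 to 0.49. The breed differences of the log2 ratios ranged from -0.42 to 1.10 for ESRRA to ESRRG, from -0.026 to 0.41 for NRF1 to GABPA, from -0.25 to 0.52 for TFAM to TFB2M and from 0.21 to 1.12 for PPARGC1A to PPARGC1B. Limma on log2(RPKM + 1) and log2(RPKM + 0.1) moved the median of all genes from 0.02 to 0.12 and 0.14.

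Same-numbered libraries did not match throughout: their deviations from the breed mean correlated at 0.23, -0.04 and -0.13, and only replicate 1 matched its own number best. QHMM replicate 2 and STH replicate 3 matched each other best, as did QHMM replicate 3 and STH replicate 2. The source of these matches was not tested. With the replicate number as a block 457 genes were called, PPARGC1B (FDR 0.0466) being the only member. The lowest raw count of a member was 16, for ESRRG in QHMM replicate 2, and the part of depth in the errors was not tested.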

Other observations

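NOLC1, a nucleolar phosphoprotein of ribosome assembly, is the next protein-coding gene beside PPRC1 in the RefSeq annotation, on the same strand, and was looked at after the values of PPRC1 had been seen. Its normalized counts were 654, 590.0 and 524 in QHMM against 741, 1587 and 843 in STH. STH replicate 2 was the highest library, as it was for PPRC1, and no libraries of the breeds overlapped. The log2 fold change was 0.84 (SE 0.29, unadjusted p 0.0155, edgeR FDR 0.147), so the gene was not called.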
